A study of Mus musculus with 12 samples.

Results

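The genes described here were 10 regulators of the mouse primitive streak and of the posterior end of the embryo, *T*, *Cdx1*, *Cdx2*, *Cdx4*, *Mixl1*, *Eomes*, *Nkx1-2*, *Evx1*, *Fgf8* and *Wnt3*. They were taken by gene symbol from the 20325 genes of the expression tables, and all 10 were found. The choice applies no threshold to their values, but it was made with earlier results of these data known. The cells were partially reprogrammed induced pluripotent stem cells (pre-iPSCs), clonal mouse lines stalled late in reprogramming. RNA was sequenced after 48 h in embryonic stem cell medium without feeder cells, with 3 replicates lettered A, B and C in each of 4 groups. The groups received DMSO (the vehicle), ascorbic acid at 50 µg/ml (AA), an inhibitor of MEK at 1 µM together with an inhibitor of GSK at 3 µM (2i), or AA and 2i together (AA+2i). All groups share the reprogramming history of the line, whose fibroblast version the methods make with retroviral Oct4, Sox2, c-Myc and Klf4; the labels do not name the line sequenced. The methods call the lettered replicates biological, and no source used here says whether they were separate cultures, so p-values measure the spread between these libraries. The 12 libraries held between 16173322 and 54392719 expected counts, the estimated number of reads assigned to genes.

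The primitive streak is the furrow in the gastrulating embryo through which epiblast cells leave to form mesoderm and definitive endoderm. Wnt ligands made there stabilise β-catenin, which acts with TCF/LEF proteins at DNA, and the T-box factor T (Brachyury) and the Cdx homeobox factors are textbook targets of that signal. GSK phosphorylates β-catenin for destruction, so a GSK inhibitor is used to mimic a Wnt signal. FGF signalling through MEK and ERK is also required in the streak, and a MEK inhibitor blocks it. The 2i mixture therefore carries an activator of 1 pathway of the streak and an inhibitor of another, and the comparisons here ask which of the streak and posterior genes moved under that mixture, under AA, and under both.

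The labelled cell type was checked against markers. *Cdh1* (E-cadherin), *Epcam* and *Sall4* were present in all 12 libraries, with *Cdh1* between 31.83 and 142.6 TPM (a level scaled for transcript length and depth), while *Fut4* reached at most 0.12 TPM. Markers of tissues that use the same regulators ranged widely. The neural genes *Sox1* and *Olig2* lay between 16.77 and 30.85 TPM and between 2.29 and 12.01 TPM over the 12 libraries, the trophoblast gene *Tcfap2c* between 15.31 and 34.24 TPM, *Hhex*, also of endoderm, between 5.80 and 10.68 TPM, and *Lgals4* of the intestine between 1.76 and 11.9 TPM. The other neural markers were low, with *Pax6* at most 0.48, *Neurog2* 0.23, *Pax3* 0.08 and *Hes5* 0.06 TPM. So were the other intestinal ones, with *Cdh17* at most 0.33, *Vil1* 0.17, *Fabp2* 0.16 and *Muc2* 0.09 TPM. The highest values of the other trophoblast genes ran from 0.42 TPM (*Elf5*) to 7.83 TPM (*Hand1*). The fibroblast genes *Thy1* and *Prrx1* lay between 0.54 and 15.99 TPM and between 0.84 and 3.96 TPM. Several defining markers were at or near 0. *Msgn1*, which defines presomitic mesoderm, was 0 in all 12 libraries, *Mesp1* was at most 0.09 TPM, and the endoderm factors *Sox17* and *Foxa2* were at most 0.24 and 0.11 TPM. Other markers of paraxial mesoderm reached more, with *Dll1* at most 1.61, *Tbx6* 1.38, *Hes7* 0.72 and *Mesp2* 0.44 TPM. Of the other endoderm markers *Cxcr4* reached 1.45, *Gsc* 0.27 and *Cer1* 0.09 TPM. Libraries differed in how counts depended on the GC content of a transcript. DMSO replicate A lay lowest and AA+2i replicate C highest for GC-rich genes, and calls of the members, and counts over the other lists, that change without either library are given with and without it.

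In order of level, *Eomes* led in the DMSO group at 2.37 ± 0.269 TPM (SD, n = 3), and its libraries did not overlap those of *Evx1*, next at 0.790 ± 0.585 TPM. *Evx1* led with AA at 4.62 ± 2.93 TPM, *Nkx1-2* with 2i at 3.47 ± 2.59 TPM, and *Evx1* again with AA+2i at 1.65 ± 0.873 TPM. With 2i the range of each gene over its 3 libraries overlapped that of the next in the order. *Wnt3* came after *Nkx1-2* at 1.16 ± 1.08 TPM, and within each of the 3 libraries *Nkx1-2* was the higher of the pair. All of these were low levels: at their highest group means, *Evx1* with AA stood above 50.6% of all genes and *Nkx1-2* with 2i above 50.0%. Nothing in bulk RNA tells fewer cells expressing a gene from less RNA in each cell, and this holds for all the values below.

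**Figure D1:**
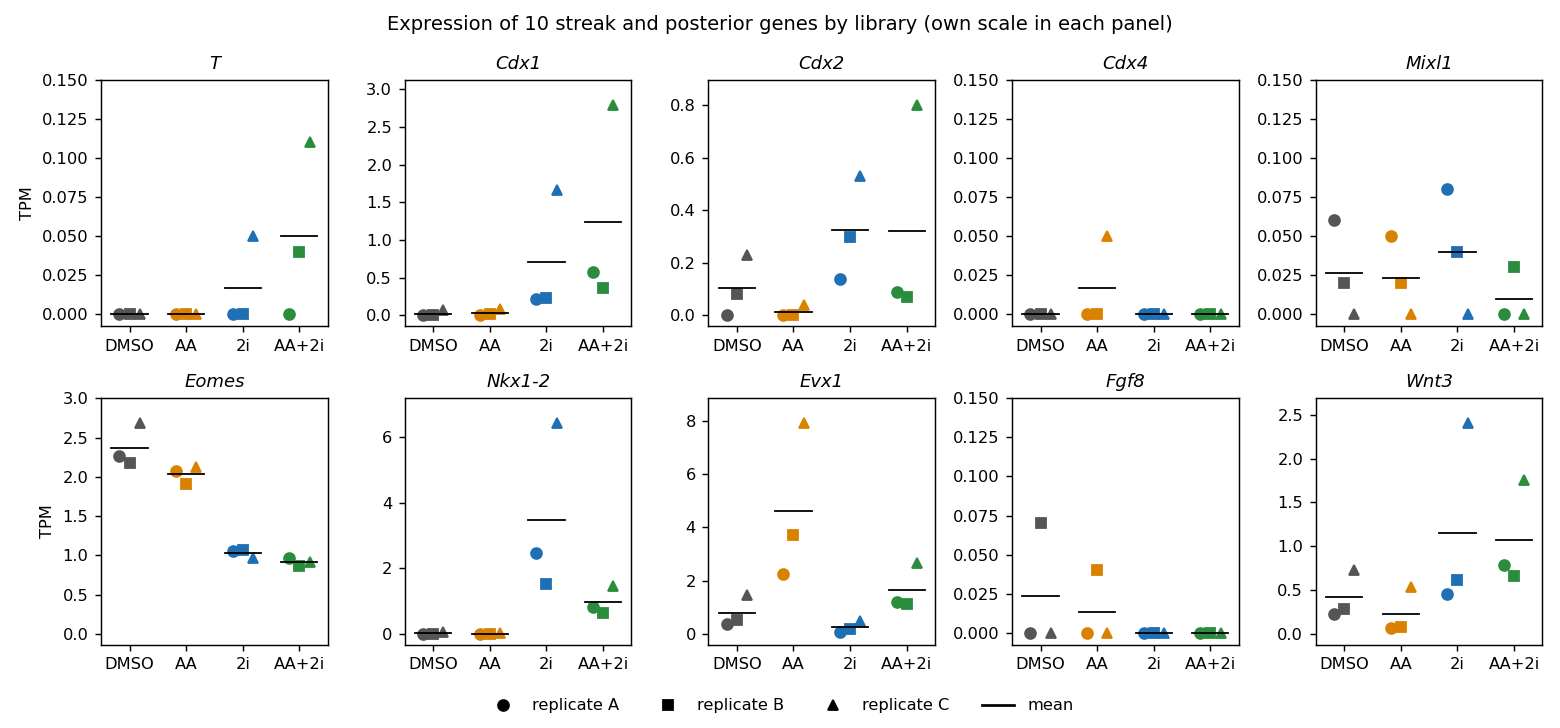
TPM of each of the 10 genes in every library, by group on the horizontal axis, with the replicate letter given by the marker shape and the group mean by a bar; each panel has its own vertical scale. *Nkx1-2* sits at 1.52 TPM or above in the 3 libraries with 2i and at 0.06 TPM or below in all libraries with DMSO or AA, while *Eomes* is lower in all 6 libraries that received 2i.

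5 of the 10 genes reached 10 counts in at least 3 libraries and were tested (*Cdx1*, *Eomes*, *Nkx1-2*, *Evx1* and *Wnt3*). The other 5 did not, and a fold change is not given for them unless their counts allow one. With 2i, 2 of the 5 tested genes passed an adjusted p of 0.05 (edgeR quasi-likelihood test, Benjamini-Hochberg over all genes tested), against a background of 4.42% of all genes. With AA none passed (background 1.34%; 1 had an unadjusted p below 0.05, and DESeq2 called 1). With AA+2i, 3 passed against DMSO (background 8.34%) and 3 against AA (6.10%), and none passed against 2i (0.910%; 2 had an unadjusted p below 0.05, and DESeq2 called 1). No member had an interaction of AA and 2i that passed (background 0.0149%; 0 at an unadjusted p below 0.05). These comparisons share libraries. *Nkx1-2* and *Cdx1* reached 10 counts only in libraries that received 2i, with at most 1 and 2 counts in any other, and so were tested only through the groups where they were high. The counts of calls in which they stand therefore describe these genes and support nothing about the 10.

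*Nkx1-2*, a homeobox gene of the caudal epiblast and its neural and mesodermal progenitors, showed the widest change with 2i. It lies at chr7:139786560-139791320 on the minus strand of mm9. Its expected counts were 0, 0 and 1 in DMSO replicates A, B and C, and those of the AA replicates were also 0, 0 and 1. The 2i replicates had 48.76, 36.01 and 118 counts, and the AA+2i replicates 16, 15 and 37.01. In TPM the 2i libraries (2.48, 1.52 and 6.41) all lay above the AA+2i libraries (0.83, 0.63 and 1.46), and both groups lay above all 6 libraries without 2i.

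With 2i alone the log2 fold change of *Nkx1-2* was 7.72 (SE, the standard error, 1.10; adjusted p = 0.00299, edgeR). Because the DMSO group held 1 count in all, the size of that fitted value depends on the prior count. The ratio of summed counts, 203 against 1 scaled for depth, was 287 with a 95% counting interval of 50.9 to 11400, which covers counting error only. The call held when any 1 of the 6 libraries was left out (adjusted p between 0.00644 and 0.0234, edgeR), but ended when letter B or letter C was left out of all groups (adjusted p = 0.16 and 0.0549). With AA+2i it rose by 5.93 against DMSO (SE 1.14, adjusted p = 0.00942) and by 6.13 against AA (SE 1.11, adjusted p = 0.00821, edgeR), with count ratios of 88.6 (15.4 to 3550) and 106 (18.5 to 4260). Those 2 calls were lost without DMSO replicate B (adjusted p = 0.0614) and without AA replicate B (adjusted p = 0.0559, edgeR), which are the 2 deepest libraries; without AA+2i replicate C both held (0.0342 and 0.0299). With a whole letter left out, the call against DMSO ended without A or B (0.0547 and 0.174) and the call against AA ended without A, B or C (0.0511, 0.171 and 0.0513, edgeR).

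Between the groups with 2i, *Nkx1-2* stood lower where AA was also present. The count ratio of AA+2i to 2i was 0.309 (counting interval 0.231 to 0.409) and the fitted difference -1.79 (95% interval -3.27 to -0.31, adjusted p = 0.354, edgeR). *Nkx1-2* was lower with AA+2i in all 3 letters (-1.46, -1.24 and -1.99 with an added count of 2), which were not shown to pair these groups. This difference did not pass the test across all genes. The departure of AA+2i from the sum of the separate changes was -1.58 (interval -7.82 to 4.65), an interval too wide to place it.

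*Nkx1-2* shares 541 of its 3265 annotated exon bases with the antisense transcript Gm16764 on mm9, which was not among the genes counted. The counting did not use strand, so reads from the pair cannot be told apart.

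*Cdx1*, *Cdx2* and *Cdx4* encode the caudal-type homeobox factors that set the posterior Hox code of the trunk and tail. *Cdx1* (chr18:61178516-61195853, mm9, minus strand) had 0, 0 and 1 counts in the DMSO libraries and 0, 1 and 2 with AA. In the 2i libraries it had 4, 5 and 28 counts, and in the AA+2i libraries 10, 8 and 65. All libraries that received 2i were above all those that did not, and within both groups replicate C stood far above A and B, at 1.66 TPM with 2i and 2.79 TPM with AA+2i.

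*Cdx1* rose with AA+2i by 6.21 against DMSO (SE 1.57, adjusted p = 0.0346) and by 5.20 against AA (SE 1.35, adjusted p = 0.0450, edgeR). The summed count ratio against DMSO was 108 (counting interval 18.9 to 4320). With 2i alone its change of 5.28 (interval 1.66 to 8.90) did not pass (adjusted p = 0.112, edgeR), at a count ratio of 52.2 (8.81 to 2120). With the replicate letter as a block over all 12 libraries, the same change was 4.87 and passed (adjusted p = 0.00140, edgeR, with 13.3% of all genes called). That fit also blocks AA+2i, whose letters were not shown to pair. With only DMSO and 2i in the blocked fit, the change was 4.89 and passed (adjusted p = 0.0163, edgeR, with 9.49% of all genes called). The pairing of these letters was taken from correlations in these data (0.177 in B), as the labels do not say what a letter shares.

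The AA+2i calls of *Cdx1* lay close to the threshold, and most omissions of 1 library ended them. Against DMSO the change was 4.62 without AA+2i replicate C (adjusted p = 0.143) and 5.98 without DMSO replicate A (adjusted p = 0.0958, edgeR), and it also fell out without DMSO replicate B (0.133) or C (0.0671). Against AA it remained below 0.05 without AA+2i replicate B (adjusted p = 0.0472, edgeR) and in none of the other 5 omissions, where it lay between 0.0636 and 0.216. At 62.1% GC, against a median of 49.6% over all genes, *Cdx1* is among the transcripts that the GC dependence touches: the fitted curve moved it by -1.89 in DMSO replicate A and by 1.39 in AA+2i replicate C on the log2 scale. After a correction for that curve the changes were 4.89 with 2i (adjusted p = 0.0233) and 5.41 with AA+2i (adjusted p = 0.00739, edgeR), both past the threshold, in fits that called 12.2% and 19.8% of all genes. Without 2i replicate C the uncorrected 2i change was 3.63 (adjusted p = 0.457, edgeR).

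*Cdx2*, which also directs trophoblast and intestine, was too low to be tested. DMSO libraries had 0, 4 and 4 counts and AA libraries 0, 0 and 1. The 2i libraries had 3, 8 and 11 counts and the AA+2i libraries 2, 2 and 23. The groups with and without 2i overlapped, and 23 of the 27 counts with AA+2i came from replicate C. The summed ratio of 2i to DMSO was 3.88 (counting interval 1.66 to 10.1). *Cdx4* was represented by 1 count in AA replicate C and by 0 in the other 11 libraries, at which depth no difference was detectable.

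*Wnt3*, the ligand whose loss prevents the streak from forming, lies at chr11:103635464-103679271 on the plus strand. Its counts were 6, 20 and 19 with DMSO and 2, 7 and 21 with AA. With 2i they were 15, 24 and 73.28, and with AA+2i 25, 26 and 74. In TPM the 3 libraries with 2i (0.46, 0.61 and 2.40) overlapped DMSO (0.23, 0.29 and 0.73), and in both groups with 2i replicate C was the highest. The change with 2i was 1.71 (SE 0.92, adjusted p = 0.407) and with AA+2i 1.64 (SE 0.91, adjusted p = 0.272, edgeR), neither past the threshold, and against AA the AA+2i value was 2.47 (adjusted p = 0.188, edgeR). Without 2i replicate C the 2i change was 0.54 (adjusted p = 0.969), and without AA+2i replicate C the AA+2i change was 0.94 against DMSO (adjusted p = 0.686) and 1.77 against AA (0.611). Without letter C in any group the value against AA was 3.33 and passed (adjusted p = 0.0291, edgeR). With the replicate block the 2i change passed (adjusted p = 0.0184, edgeR), as it also did when only DMSO and 2i entered the blocked fit (1.52, adjusted p = 0.0468, with 9.49% of all genes called). Within letters *Wnt3* was above DMSO in 3 of 3, by 0.86, 1.29 and 1.83 with an added count of 2.

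*Evx1*, an even-skipped homeobox gene of the posterior streak, was higher with AA and lower with 2i in its group means, without a call in the fit of 4 group means. It lies at chr6:52263492-52268372 on the plus strand. Its counts were 9, 34 and 35 in the DMSO libraries and 62, 299 and 283 with AA, or 0.38, 0.53 and 1.46 TPM against 2.25, 3.71 and 7.90 TPM. With 2i it had 2, 7 and 14 counts (0.07, 0.19 and 0.50 TPM), and with AA+2i 35, 40 and 103 (1.19, 1.11 and 2.66 TPM). The 3 AA libraries were above all DMSO libraries, and the 3 AA+2i libraries above all 2i libraries, whereas DMSO overlapped both groups that received 2i.

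With AA the change of *Evx1* was 2.59 (SE 0.77, unadjusted p = 0.00625, adjusted p = 0.186, edgeR), a value 6.03 times that in DMSO, and it did not pass across all genes. With the replicate block over all 12 libraries it was 2.64 and passed (adjusted p = 0.00146, edgeR, with 4.43% of all genes called). With only AA and DMSO in the blocked fit, it was 2.66 and passed (adjusted p = 0.00186, edgeR, with 7.30% of all genes called). The pairing of the letters was taken from correlations in these data, not from the labels. Within letters A, B and C the change was 2.28, 2.88 and 2.38 with an added count of 2. The gene is GC-rich (61.2%), and after the GC correction the change was 2.24 and passed (adjusted p = 0.0415, edgeR, with 4.10% of all genes called). Leaving out 1 library moved the uncorrected change between 1.93 without AA replicate C (adjusted p = 0.628) and 3.43 without DMSO replicate C (adjusted p = 0.125, edgeR), and without DMSO replicate A it was 2.30 (adjusted p = 0.453).

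The comparison of AA+2i with 2i gave *Evx1* a difference of 2.77 (interval 0.94 to 4.59, adjusted p = 0.184, edgeR), higher in 3 of 3 letters, which were not shown to pair these groups. With the GC correction it was 2.44 and passed (adjusted p = 0.0409, edgeR, with 4.60% of all genes called). Without AA+2i replicate C the uncorrected difference was 2.10 (adjusted p = 0.596). Against AA, the AA+2i value was -1.27 (interval -2.85 to 0.32, adjusted p = 0.435) and passed with the GC correction (interval -3.09 to -0.92, adjusted p = 0.018, edgeR, with 14.9% of all genes called). The interaction term was 0.17 (interval -2.14 to 2.48). With 2i alone the gene stood below DMSO by -1.44 (SE 0.84, adjusted p = 0.447), a change that passed with the replicate block (-1.44, adjusted p = 0.0220) and after the GC correction (-2.21, adjusted p = 0.0463, edgeR) but not when only DMSO and 2i entered the blocked fit (adjusted p = 0.0830). Against DMSO the AA+2i value of 1.33 fell to 0.23 (interval -0.96 to 1.43) with the GC correction. *Evx1* shares 73 of 2877 exon bases with the antisense 5730457N03Rik, which was not counted.

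*Eomes* and *Mixl1* encode the T-box and homeobox factors of the streak that lead into mesendoderm, and *Eomes* also marks trophoblast. *Eomes* (chr9:118387330-118395250, plus strand) had at least 35.05 counts in each of the 12 libraries. It was at 2.26, 2.18 and 2.68 TPM with DMSO and at 2.07, 1.91 and 2.12 TPM with AA. It was at 1.06, 1.07 and 0.97 TPM with 2i and at 0.97, 0.86 and 0.92 TPM with AA+2i. Every library that received 2i lay below every library that did not, the AA libraries lay just below the DMSO libraries, and 2i and AA+2i met at 0.97 TPM.

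*Eomes* fell by 1.03 on the log2 scale with 2i (SE 0.23, adjusted p = 0.0293, edgeR), a 2.05-fold decrease. With AA+2i it fell by 1.17 against DMSO (SE 0.23, adjusted p = 0.0106) and by 0.96 against AA (SE 0.23, adjusted p = 0.0309, edgeR). Its change with AA was -0.20 (interval -0.70 to 0.29) and its difference between AA+2i and 2i -0.13 (interval -0.64 to 0.38). The 2i call was lost when any 1 library other than DMSO replicate B was left out (adjusted p between 0.0637 and 0.116, with changes between -0.89 and -1.05), and when only DMSO and 2i entered the fit (-1.02, adjusted p = 0.186, edgeR). The AA+2i call against DMSO was lost without AA+2i replicate B (adjusted p = 0.0543), and held without DMSO replicate A (0.0278) and without AA+2i replicate C (0.0322). Against AA it was lost in each of the 6 omissions (adjusted p between 0.0630 and 0.134).

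*Mixl1* had at most 2 counts in any library and 8.03 in all 12 together. *Fgf8*, the FGF ligand of the streak and tail bud, had 1.43 counts in DMSO replicate B and 1 in AA replicate B, the 2 deepest libraries, and 0 elsewhere.

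*T*, the factor that names the nascent mesoderm of the streak, had 0 counts in all DMSO and AA libraries. It had 1 count in 2i replicate C, 1 in AA+2i replicate B and 3 in AA+2i replicate C. The highest value was 0.11 TPM. The ratio of 4 counts with AA+2i to 0 with AA had a lower 95% counting limit of 1.03, and to 0 with DMSO one of 0.86, limits that leave out the spread between libraries, and 3 of the 4 counts were in replicate C. So 6 of the 10 genes (*Cdx1*, *Cdx2*, *Eomes*, *Nkx1-2*, *Evx1* and *Wnt3*) had reads in each library with 2i, while *T*, *Cdx4*, *Mixl1* and *Fgf8* stayed at 3 counts or fewer in every library.

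**Figure D2:**
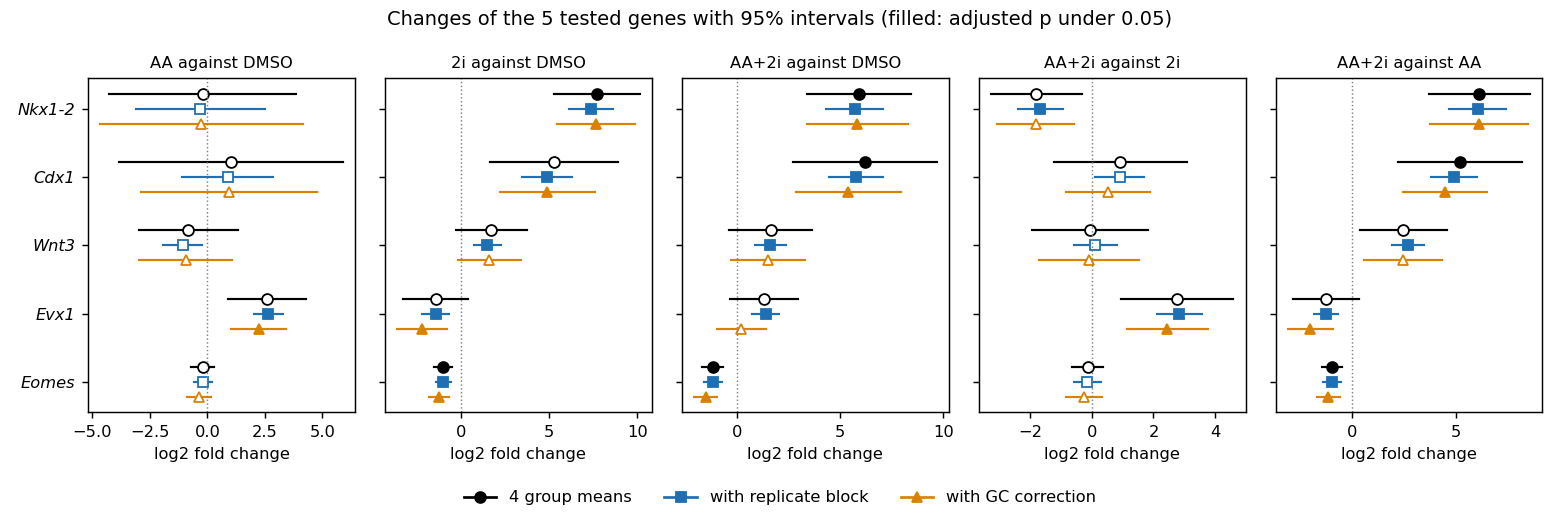
Log2 fold changes of the 5 tested genes with 95% intervals in 5 comparisons, from the fit of 4 group means (circles), with the replicate letter as a block (squares) and with the GC correction (triangles); filled markers passed an adjusted p of 0.05 over all genes. With 2i *Nkx1-2* is filled in all 3 fits (7.72, 7.39 and 7.66), as is *Eomes* (-1.03, -1.01 and -1.26), and *Evx1* with AA is filled in the blocked and the corrected fit only. The blocked fit drawn holds all 12 libraries. With only DMSO and 2i in it, which is not drawn, *Eomes* did not pass (adjusted p = 0.0692, edgeR).

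Because the 2i mixture bears on Wnt signalling, the start regions of the genes are of interest beside these values. RefSeq windows on GRCm38.p6 were at hand for 7 of the 10 genes, and the 250 bases before the annotated start were searched on both strands for 4 forms of the TCF/LEF motif (CTTTGAA, and likewise CTTTGAT, and likewise CTTTGTA, and likewise CTTTGTT) and for the CDX motif TTTATG. The motifs do not overlap each other in these windows. The windows of *T*, with few reads in any library, of *Nkx1-2*, the widest rise with 2i, and of *Eomes*, the fall, are shown 5′ to 3′ along the gene, with motif matches in capitals.

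T (chr17:8434173-8434422, plus strand): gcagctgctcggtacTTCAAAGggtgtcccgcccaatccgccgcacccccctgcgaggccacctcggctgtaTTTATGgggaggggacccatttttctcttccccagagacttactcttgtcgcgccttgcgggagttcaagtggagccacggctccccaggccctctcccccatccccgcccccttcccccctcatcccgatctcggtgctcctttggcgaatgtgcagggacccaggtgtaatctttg
Nkx1-2 (chr7:132599638-132599887, minus strand): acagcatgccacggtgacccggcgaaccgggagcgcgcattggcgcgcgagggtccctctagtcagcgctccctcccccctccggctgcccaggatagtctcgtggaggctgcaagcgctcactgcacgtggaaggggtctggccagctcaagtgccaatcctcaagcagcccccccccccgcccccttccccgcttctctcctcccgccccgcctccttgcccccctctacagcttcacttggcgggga
Eomes (chr9:118477939-118478188, plus strand): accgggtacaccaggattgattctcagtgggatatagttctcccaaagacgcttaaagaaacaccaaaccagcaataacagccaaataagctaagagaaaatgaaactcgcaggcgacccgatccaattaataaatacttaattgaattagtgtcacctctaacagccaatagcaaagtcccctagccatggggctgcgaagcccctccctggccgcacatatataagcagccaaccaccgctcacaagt

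*T* held 1 TCF/LEF match (CTTTGAA on the minus strand, 235 to 229 bases before the start) and 1 CDX match (178 to 173 bases before it). The other 6 windows (*Cdx2*, *Cdx4*, *Eomes*, *Nkx1-2*, *Evx1* and *Wnt3*) held neither. Over 32851 windows of the same length, 14.8% held a TCF/LEF match and 10.8% a CDX match, so that 1 of 7 is near what all genes show for each. The window of *Nkx1-2* was 69.6% GC and that of *Eomes* 46.4%.

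Genes around the members were read from lists of the same pathways. Of 12 Wnt target and feedback genes, 11 were tested and 3 rose with 2i and none fell (edgeR; 6 rose and none fell at an unadjusted p below 0.05, and 4 rose with DESeq2), at a median of 2.05 against -0.02 for all genes. They were *Tnfrsf19*, a receptor (4.69, SE 0.59, adjusted p = 0.00174), *Axin2*, the negative feedback scaffold of the pathway (5.83, SE 0.77, adjusted p = 0.00202), and *Nkd1*, an inhibitor of Dishevelled (3.36, SE 0.56, adjusted p = 0.00697, edgeR). *Axin2* was at 0.06, 0.14 and 0.22 TPM with DMSO and 3.50, 3.97 and 12.80 TPM with 2i, and replicate C was again the highest. With AA none of the 11 passed (median -0.23; 0 at an unadjusted p below 0.05 and 0 with DESeq2), and with AA+2i 6 rose and none fell (edgeR; 8 rose unadjusted, 7 with DESeq2). *Dkk1*, 1 of those 6 and named after its values were seen, was at 0.66, 0.79 and 7.29 TPM with AA+2i. It was at most 0.13 TPM with DMSO, 0.04 TPM with AA and 0.28 TPM with 2i, so its test rests on the group where it was high. The counts of rises with AA+2i therefore describe these genes and support nothing about the list. Without AA+2i replicate C, or without DMSO replicate A, 5 rose with AA+2i, and the count with 2i was 3 without 2i replicate C and without DMSO replicate A. Of all genes, 1.59% rose and 2.83% fell with 2i, 1.34% passed with AA, and 3.93% rose and 4.41% fell with AA+2i. Of 13400 genes, 2151 with 2i and 3325 with AA+2i had an unadjusted p below 0.05 (edgeR).

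Of 12 ERK target genes, 11 were tested and 4 fell with 2i and none rose (edgeR; 10 fell at an unadjusted p below 0.05, and 7 with DESeq2), at a median of -1.26. *Dusp6*, the phosphatase that acts on ERK, fell by 3.00 (SE 0.21, adjusted p = 4.63e-05, edgeR), from 72.48, 58.14 and 56.93 TPM to 7.14, 6.68 and 6.85 TPM. *Dusp4* fell by 1.58, *Spry4* by 1.22 and *Spry1* by 1.65. None of the 11 passed with AA (edgeR; 1 fell at an unadjusted p below 0.05 and 1 with DESeq2). Of all genes, 2.83% fell and 1.59% rose with 2i, and 1.34% passed with AA. With 2i, 2151 of 13400 genes had an unadjusted p below 0.05 in either direction (edgeR).

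Among 20 other genes of the streak and tail, 16 were tested, and with 2i 4 rose and 3 fell (edgeR; 6 rose and 5 fell at an unadjusted p below 0.05, and 5 and 3 with DESeq2), at a median of -0.11. Of all genes, 1.59% rose and 2.83% fell with 2i. Without 2i replicate C, or without DMSO replicate A, 2 of the 16 rose and 2 fell. *Wnt8a*, a posterior Wnt ligand, rose by 3.90 (SE 0.47, adjusted p = 0.00143), from 1.47, 4.80 and 4.58 TPM to 35.98, 42.03 and 61.62 TPM. *Sp8*, a zinc-finger gene of the tail bud, rose by 5.82 (SE 0.86, adjusted p = 0.00655, edgeR). It was at 0.05, 0 and 0.03 TPM with DMSO and 0 in all AA libraries, against 1.11, 0.53 and 1.48 TPM with 2i. Like *Nkx1-2* and *Cdx1*, *Sp8* was thus tested through the groups where it was high. The counts of rises in which it stands describe these genes and support nothing about the list. *Tdgf1*, the Nodal co-receptor Cripto, fell by 1.97 (SE 0.27, adjusted p = 0.00257), and *Fgf4* fell by 1.16 (SE 0.17, adjusted p = 0.00299, edgeR). *Sp5*, *Wnt5b* and *Cyp26a1* were the others that passed, *Sp5* in 1 and the other two in 0 of the 6 fits without 1 library. With AA *Tdgf1* rose by 1.53 (SE 0.27, adjusted p = 0.0180) and *Lefty2*, the Nodal inhibitor, by 2.17 (SE 0.36, adjusted p = 0.0145, edgeR), and none of the 16 fell (3 fell at an unadjusted p below 0.05, and 0 with DESeq2). Without DMSO replicate A neither of these passed with AA. With AA+2i 6 rose and 1, *Fgf4*, fell (edgeR; 7 and 3 unadjusted, 6 and 2 with DESeq2), and without AA+2i replicate C 5 rose and 0 fell. Over all tested genes and with every library kept, the share called higher with AA+2i was 3.93% and the share called lower 4.41% (edgeR). For AA these shares were 0.866% and 0.470%. *Sp5*, *Wnt5b*, *Cyp26a1* and *Lefty2* here, and the genes named below for AA+2i, are named after their values were seen.

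The trunk and tail Hox genes, which Cdx factors regulate in the embryo, number 26 in the list, of which 13 were tested. With 2i none rose and none fell (edgeR, median -0.17; 1 rose and 2 fell at an unadjusted p below 0.05, and 0 passed with DESeq2). With AA+2i none rose and *Hoxd8* and *Hoxd13* fell (edgeR; DESeq2 called 1 higher and 4 lower), and without AA+2i replicate C, or without DMSO replicate A, neither passed. Of all genes, 1.59% rose and 2.83% fell with 2i, and 3.93% rose and 4.41% fell with AA+2i (edgeR). The summed level of the Hox genes was 109.74 to 148.17 TPM over the DMSO libraries and 104.49 to 113.33 TPM over those with 2i. It was lower than in any DMSO library with AA (84.99 to 97.79 TPM) and with AA+2i (89.12 to 94.37 TPM). Much of that sum came from *Hoxd8*, with means of 33, 19 and 12.8 TPM with DMSO, AA and AA+2i, and from *Hoxd13* (32.8, 14.4 and 9.83 TPM). Of the 13 tested genes, 2 had a positive change with AA and 7 with AA+2i. With AA 0 passed (edgeR; 3 fell at an unadjusted p below 0.05, 0 with DESeq2 and 1 with the GC correction).

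**Figure D3:**
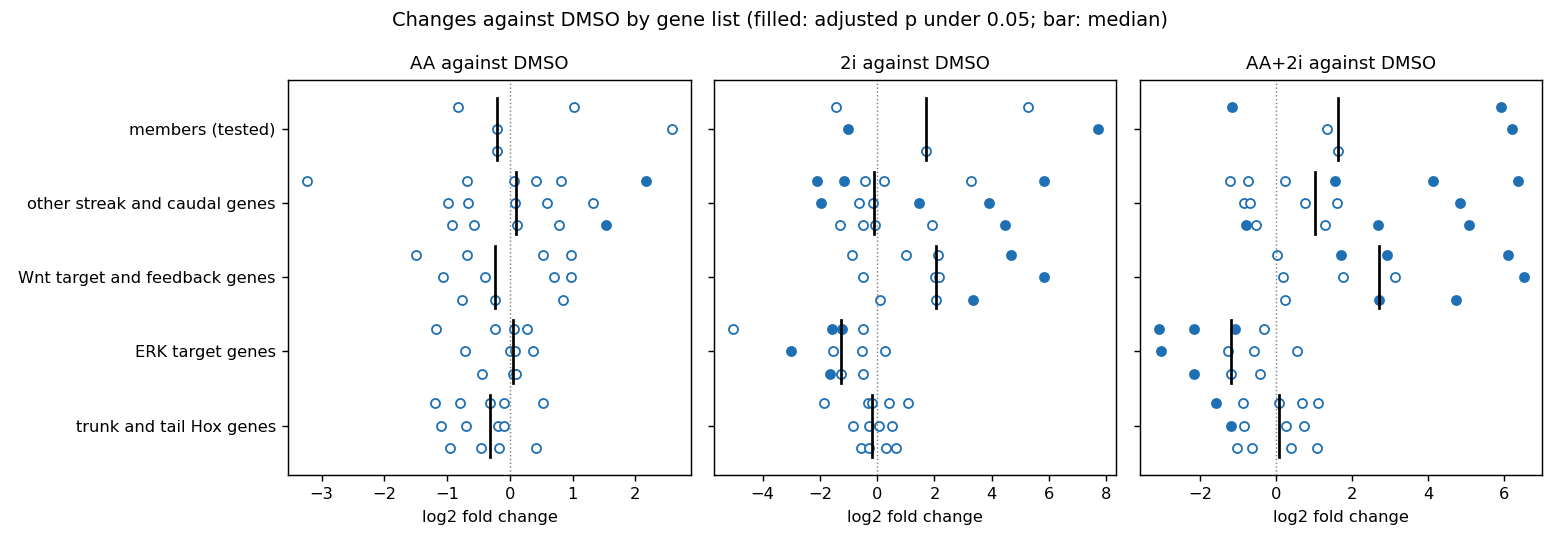
Log2 fold changes against DMSO of the tested members and of the tested genes of 4 other lists, 1 point per gene, filled where the adjusted p was below 0.05, with the median of each list as a bar. With 2i the bar of the Wnt targets lies at 2.05 and that of the ERK targets at -1.26, and the Hox genes have no filled point with AA or 2i.

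Some of the members also mark other cell types, and those lists were read beside them. Of 8 trophoblast markers 7 were tested and none passed with 2i or AA (edgeR; 1 higher at an unadjusted p below 0.05 in each, and DESeq2 called 1 with 2i and 0 with AA), while *Esx1* rose with AA+2i (2.06, adjusted p = 0.00941, edgeR). With AA+2i 4 of the 7 were higher at an unadjusted p below 0.05 and 2 with DESeq2. The other three at that level were *Krt7* (3.40, unadjusted p = 0.012), *Gata3* (1.11, 0.0203) and *Hand1* (2.61, 0.0253, edgeR), in the group where *Cdx1* was called. Their summed level was 18.52 to 36.46 TPM with DMSO, 21.53 to 39.73 TPM with 2i and 31.36 to 56.46 TPM with AA+2i, most of it from *Tcfap2c* (24.29 to 34.24 TPM with AA+2i). The defining *Elf5*, too low to be tested, was 0, 0.02 and 0 TPM with DMSO and 0 in all libraries with 2i, against 0.25, 0.24 and 0.42 TPM with AA and 0.05, 0.04 and 0.07 TPM with AA+2i. Fibroblast or feeder markers summed to 6.79 to 15.03 TPM with DMSO, 10.32 to 19.81 TPM with AA and 7.67 to 10.88 TPM with AA+2i. None of 7 passed with AA (edgeR, 1 higher and 2 lower at an unadjusted p below 0.05, and 0 with DESeq2). The 1 higher was *Thy1* (1.34, unadjusted p = 0.0193, edgeR), at 6.69, 15.12 and 15.99 TPM with AA against 2.64, 5.55 and 7.21 TPM with DMSO. With 2i the sum was 5.94 to 6.19 TPM, with none of 7 past the test (edgeR; 3 at an unadjusted p below 0.05, and DESeq2 called 2), or 1 lower without DMSO replicate A. Of those 3, *Col3a1* was higher (1.56, unadjusted p = 0.0113), and *Thy1* (-1.97, 0.00298) and *Prrx1* (-0.80, 0.0448, edgeR) were lower. *Col3a1* rose with AA+2i against DMSO (2.25, adjusted p = 0.0205) and against AA (2.33, adjusted p = 0.0193, edgeR), at 0.47, 0.64 and 0.57 TPM with AA+2i, and passed against DMSO in 2 of the 6 fits without 1 library, not without DMSO replicate A or AA+2i replicate C. The 3 tested caudal neural markers, the 2 of paraxial mesoderm, the 2 of definitive endoderm and the 1 of intestine had no call with 2i (edgeR; 1 caudal neural marker was lower at an unadjusted p below 0.05 and with DESeq2). Of all genes, 4.42% passed with 2i, 1.34% with AA and 8.34% with AA+2i against DMSO, and 6.10% with AA+2i against AA (edgeR). An unadjusted p below 0.05 was reached by 2151 of 13400 genes with 2i, 1263 with AA and 3325 with AA+2i against DMSO (edgeR). The part of other cell types in the values of the members was not tested.

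Over the 12 libraries the members did not move as 1 group. On log2 CPM (counts scaled to the size of the library), Pearson's r was 0.89 for *Cdx1* and *Wnt3*, 0.86 for *Cdx1* and *Nkx1-2* and 0.79 for *Nkx1-2* and *Wnt3*. It was -0.83 for *Eomes* and *Nkx1-2*, and between -0.40 and 0.33 for *Evx1* with each of the other 4. These are descriptions over libraries that share groups, letters and GC dependence. The genes most like the mean profile of the 5 tested members were *Ufsp1* (r = 0.970), *Atp5e* (0.969), *Tcfap2c* (0.956), *Pcbp1* (0.950) and *Glrx5* (0.948), over the same 12 libraries. All 5 had their highest mean in letter C (*Ufsp1* 1.34, 1.37 and 2.28 log2 CPM in A, B and C) and a transcript GC content between 52.7% and 57.6%, above the median of 49.6%. Taken for *Nkx1-2* alone, which was done after its values were seen, the nearest were *Cdh5* (0.981), *Chrm2* (0.978), *Tbc1d9* (0.975), *Sp8* (0.970) and *Lmo2* (0.967).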

How the data were processed

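RNA of 12 pre-iPSC libraries, 3 lettered replicates in each of 4 groups, was prepared with the TruSeq kit. Per the labels and methods, the authors trimmed the reads, aligned them to RefSeq genes of mm9 (the labels name Bowtie, the methods Bowtie2) and quantified them with RSEM 1.2.4 without strand. The deposited tables hold, per library, expected counts (estimated counts per gene, not normalized) and TPM (levels scaled by RSEM for transcript length, with 1 total in every library). 1 malformed TPM cell, of no gene discussed, was recomputed. The study called genes with EB-seq, which was not installed.

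The test was the quasi-likelihood F test of edgeR 4.0.16 (R 4.3.3; rounded expected counts, RLE factors, 4 group means over all 12 libraries) on the 13400 genes that reached 10 counts in 3 or more libraries, with Benjamini-Hochberg adjustment over all of them at 0.05. Standard errors were derived from the F statistic. The script was tested on simulated data. Alternatives were TMM factors, DESeq2 1.42.0, limma 3.58.1 on log2(TPM + 1) and log2(TPM + 0.1), other count filters, only the groups compared, the replicate letter as a block, a correction for transcript GC content (a loess curve per library, 13293 genes) and leaving out letters or libraries. Counting intervals are 95% exact intervals of summed counts.

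Letters were taken as pairs where every same-letter pair of deviations from the group means correlated above 0.1. This held for AA and DMSO (0.894, 0.694 and 0.608 in A, B and C) and for 2i and DMSO (0.787, 0.177 and 0.513), and not for AA+2i with DMSO (lowest -0.588), 2i (0.067) or AA (-0.543). The pairing comes from the data, as the labels do not say what a letter shares.

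All 10 members are named. From each other list, up to 4 genes with the smallest adjusted p with 2i are named, and the 5 genes most correlated with the mean standardized profile of the tested members. The members and lists were chosen with earlier results of these data known. Gene positions and GC content are from GENCODE vM1 on mm9, and start windows from RefSeq on GRCm38.p6. Depth limits the genes below 10 counts.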

Additional observations from a re-analysis of the deposited data

How the results depend on the processing

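No change of the 5 tested members reversed its sign past the threshold in 596 values, each of 1 member in 1 comparison under 1 alternative setting. Of these values, which share libraries and fits, 506 kept their side of the threshold. The number of members called with AA, 0, was 1 (*Evx1*) with DESeq2, the replicate block, the block in only the groups compared, the GC correction, and correction and block together. With 2i, 2 became 1 with at least 10 counts in every library (1 member tested) and with only the groups compared, 4 with the GC correction, and 5 with the replicate block and with correction and block. For AA+2i against DMSO, 3 became 1 with limma on log2(TPM + 1) and with 10 counts in every library, and 5 with the block. Against AA, 3 became 1 with those 2 settings and with only the groups compared, and 5 with the block, alone or with the correction. Against 2i, 0 became 1 with DESeq2 and with the GC correction (*Evx1* with the correction), and 2 (*Nkx1-2* and *Evx1*) with the block in each of its 3 forms. In all 3 comparisons of AA+2i the letters were not shown to pair the libraries, so the blocked values there rest on a shared letter only. Without a replicate letter or 1 library, the counts ranged from 0 to 2 with 2i, from 0 to 3 for AA+2i against DMSO and from 0 to 2 against AA. Omitting a letter leaves 2 libraries a group. Omission of letter B or C ended the *Nkx1-2* call with 2i (adjusted p = 0.16 and 0.0549, edgeR). The cause was not tested. The block fitted in only the groups compared, and the counts over other lists without 1 library, were chosen after seeing the data. The block called 1782 genes with 2i, 594 with AA and 4229 with AA+2i against DMSO, and the GC correction 1622, 545 and 2628, where the fit of 4 group means called 592, 179 and 1117. *T*, *Cdx2*, *Cdx4*, *Mixl1* and *Fgf8* are limited by depth.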
